A study of Mus musculus with 2 samples.

Results

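Transcripts of 7 genes of the myeloid growth factor system were followed through the immune cells of a mouse melanoma: the growth factor genes Csf1 (M-CSF) and Csf2 (GM-CSF) and the receptor genes Csf1r, Csf2ra, Csf2rb, Csf2rb2 and Csf3r. The genes were picked by name under a rule that uses no measured value, though with earlier results of these data known, and all 7 were found among the 55450 genes of the matrices. Single-cell RNA-seq had been run on CD45+ cells sorted at day 10 from subcutaneous tumours of B16F10, a transplantable melanoma line of the mouse. The WT library came from Kcnj2f/f mice and the KO library from Lyz2-Cre-Kcnj2f/f mice, with tumours of 3 mice pooled for each library. Both groups therefore carried the floxed Kcnj2 allele, and the Cre recombinase of the KO mice is driven by the Lyz2 locus, which is active mainly in macrophages, monocytes and neutrophils. The stated purpose was to examine what Kir2.1, the inwardly rectifying potassium channel encoded by Kcnj2, does to the tumour microenvironment.

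M-CSF acts through Csf1r, a receptor tyrosine kinase, and is the main growth and survival factor of macrophages. GM-CSF, a product of activated lymphocytes among other cells, binds a receptor made of the alpha chain Csf2ra and the common beta chain Csf2rb, which signals through the kinase Jak2 and the transcription factor STAT5. Mice carry a further beta chain gene, Csf2rb2, whose product serves interleukin-3, while Csf3r is the receptor for G-CSF, the growth factor of neutrophils.

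The WT library held 9677 barcodes and 55219440 UMIs (unique molecular identifiers, each marking 1 captured transcript) and the KO library 6356 barcodes and 57047535 UMIs, against 6000 to 8000 cells aimed at for each. After filtering, 8936 WT cells with a median of 4398.5 UMIs and 5686 KO cells with a median of 8013 UMIs remained. Clusters were named from marker genes and carry the suffix -like, 1187 WT cells (13.3%) and 350 KO cells (6.16%) stayed unnamed, and a cluster led by cell cycle genes (386 and 185 cells) was kept apart as cycling cells. The doublet caller marked 0 WT and 2 KO cells and so did not work as a filter. Of 63 barcodes found in both libraries, 61 were kept in both, and they made up 45 of 123 WT and 44 of 87 KO melanoma-like cells but at most 5 cells of any other class in a library. Ptprc, which encodes CD45, had a UMI in 31.7% of WT and 25.3% of KO melanoma-like cells and in 66.2% to 100% of the cells of every other class; at their median depths of 811 and 770 UMIs a cell without a UMI may still express the gene. Kcnj2 stood at 23.7 CPM (UMIs of the gene as a share of all UMIs of the class in that library, on the usual CPM scale; 115 UMIs) in WT and 9.55 CPM (86 UMIs) in KO macrophage-like cells, and at 6.79 CPM (20 UMIs) and 2.46 CPM (8 UMIs) in monocyte-like cells. The labels do not say which part of Kcnj2 was deleted, so these 3' counts need not report the deletion. With 1 library per genotype no test over mice exists: each comparison is between 2 libraries, and the 95% intervals below cover counting error only.

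Csf1 (ENSMUSG00000014599, chr3:107741048-107760469 of GRCm38, minus strand) was concentrated in neutrophil-like cells and in the few mast cell-like cells. Neutrophil-like cells held 412 WT UMIs in 145 cells, which is 939 CPM (95% interval 850 to 1034), and 85 KO UMIs in 24 cells, which is 1119 CPM (894 to 1384). Mast cell-like cells held 80 WT UMIs in 24 cells (559 CPM, 443 to 696) and 67 KO UMIs in 9 cells (1640 CPM, 1271 to 2082). The order of these classes differed between the libraries: in WT the neutrophil-like level lay above the mast cell-like level with intervals apart, and in KO the mast cell-like level was the higher one with overlapping intervals. A Csf1 UMI was present in 89 of 145 WT (61.4%) and 13 of 24 KO (54.2%) neutrophil-like cells, although their median depth was only 2283 and 2721 UMIs. CD8 T cell-like cells, which served as background, had a Csf1 UMI in 0.976% of WT and 0.334% of KO cells at median depths of 5379.5 and 5098 UMIs. With cells thinned to 1000 UMIs and shallower cells left out, 46.8% of WT and 47.8% of KO neutrophil-like cells and 0.0702% and 0.334% of CD8 T cell-like cells kept a Csf1 UMI. In the KO library the neutrophil-like level rested on few cells: 1 cell gave 35 of its 85 UMIs, and without the 5 richest cells 14 UMIs (234 CPM) remained, against 325 UMIs (823 CPM) in WT.

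Neutrophil-like cells made up 1.62% of all WT and 0.422% of all KO cells, yet they held 40.8% (37.7 to 43.9) of the WT and 15.7% (12.7 to 19.0) of the KO Csf1 UMIs. The mast cell-like class held 7.91% and 12.4%. Macrophage-like and monocyte-like cells together, the classes that carry most of the M-CSF receptor, had 8.21% of WT Csf1 UMIs and 21.03% of those in KO. Their Csf1 levels were low, at 11.1 and 9.99 CPM in macrophage-like and 9.85 and 7.37 CPM in monocyte-like WT and KO cells. The library totals were 1011 WT and 542 KO Csf1 UMIs, or 18.6 and 9.68 CPM over all kept cells.

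Lower Csf1 levels were found in the cycling cells (21.3 and 25.4 CPM), the regulatory T cell-like cells (17.5 CPM from 15 UMIs in WT and 38.8 CPM from 40 UMIs in KO) and the CD4 T cell-like cells (15.4 and 9.32 CPM). The intervals of neighbours in this order overlapped in WT. In KO those of the regulatory T cell-like and cycling cells overlapped, and both lay apart from CD4 T cell-like cells. B cell-like cells were at 7.04 and 3.13 CPM and CD8 T cell-like cells at 1.75 and 0.630 CPM. Within the dendritic cells Csf1 stayed low, at 4.09 and 5.30 CPM in cDC2-like cells (type 2 conventional dendritic cells), while WT cDC1-like cells (type 1) had 0 UMIs in 200 cells, which allows up to 1.24 CPM, and KO cDC1-like cells had 6.

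Melanoma-like cells showed Csf1 at 52.0 CPM (174 UMIs) in WT and 6.63 CPM (27 UMIs) in KO. Only 11 cells of each library carried a UMI, and 2 WT cells held 130 of the 174. The cells with a Csf1 UMI had median depths of 125757 UMIs in WT and 197015 in KO, against 742.5 and 708 UMIs in the melanoma-like cells without one. Barcodes that occur in both libraries gave 89 WT and 21 KO UMIs, and without them 85 WT UMIs (37.5 CPM, 29.95 to 46.4) and 6 KO UMIs (3.36 CPM, 1.23 to 7.30) remained. Without the 5 richest cells the levels were 4.76 and 2.24 CPM. WT melanoma-like cells also held transcripts that KO ones hardly had: erythroid markers summed to 5569 CPM in WT and 0.491 CPM in KO (4 of 6 at 0), and fibroblast markers to 2237 and 24.8 CPM (1 of 7 at 0). Their part in the Csf1 levels was not tested.

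Csf2 (ENSMUSG00000018916, chr11:54247271-54249667, minus strand) was mainly a lymphoid transcript and was held by few cells. The WT library had 151 Csf2 UMIs in 52 cells and the KO library 282 in 44 cells. Cycling cells held 86 WT UMIs (57.0%, 48.7 to 65.0) in 18 of 386 cells and 237 KO UMIs (84.0%, 79.2 to 88.1) in 17 of 185 cells, which is 23.2 CPM (18.6 to 28.7) and 74.3 CPM (65.1 to 84.4). The KO level came from single cells: 1 cell held 104 UMIs and the next 51, together 65.4% of the KO cycling total. Without the 5 richest cells of each library, 31 WT and 32 KO UMIs remained, at 8.46 and 10.7 CPM. NK cell-like cells followed with 21 UMIs in 11 WT cells and 25 UMIs in 14 KO cells, at 14.5 CPM (8.95 to 22.1) and 15.3 CPM (9.89 to 22.6). Cycling and NK cell-like intervals overlapped in WT and lay apart in KO.

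Other lymphoid classes held little Csf2. Gamma-delta T cell-like cells had 3 UMIs in each library (12.8 and 13.4 CPM), CD4 T cell-like cells 12 and 4 (4.40 and 2.87 CPM), and CD8 T cell-like cells outside the cycling cluster 0 in 1434 WT cells and 7 in 299 KO cells, of which 6 came from 1 cell. No Csf2 UMI was found in macrophage-like, monocyte-like, neutrophil-like, pDC-like (plasmacytoid dendritic) or mast cell-like cells of either library. A count of 0 allowed up to 0.617 CPM in WT and 0.333 CPM in KO macrophage-like cells and up to 1.02 and 0.921 CPM in monocyte-like cells, but only up to 6.84 and 39.5 CPM in the shallow neutrophil-like class. The melanoma-like cells had 9 WT UMIs, 8 of them in 1 cell, and 0 KO UMIs. A few Csf2 UMIs lay in dendritic classes. Migratory DC-like cells had 6 in WT, all in 1 cell, and 2 in KO, cDC2-like cells 2 in each library and cDC1-like cells 0 and 1. All myeloid and dendritic classes together held 5.30% of WT and 1.77% of KO Csf2 UMIs. Unnamed cells held 10 WT and 0 KO UMIs.

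The cycling cells with a Csf2 UMI carried T cell transcripts. Cd3e, a chain of the T cell receptor complex, was present in 17 of 18 WT and 13 of 17 KO such cells, Cd8a in 13 and 10, Cd4 in 4 and 5, and Foxp3 in 0 and 0. Of the cytokines that can accompany Csf2, Ifng (interferon-gamma) had a UMI in 77.8% of WT and 64.7% of KO Csf2-positive cycling cells, against 39.4% and 41.7% of the other cycling cells. Il2ra, the interleukin-2 receptor alpha chain, was found in 66.7% and 76.5% against 17.4% and 27.4%. Xcl1, a chemokine for cDC1, was found in 55.6% and 58.8% against 19.6% and 20.8%. Bhlhe40, a transcription factor known for promoting Csf2 in T cells, was found in all 18 and all 17, against 71.2% and 79.2%. Tnf and Nr4a1 differed in direction between the libraries. Tnf was rarer in Csf2-positive cycling cells of WT (3 of 18 against 92 of 368). In KO Tnf was more frequent in such cells (8 of 17 against 58 of 168). Nr4a1 was more frequent in such cells of WT (11 of 18 against 184 of 368). In KO Nr4a1 was rarer (10 of 17 against 113 of 168). Il4, Il13 and Il17a were at 0 in the Csf2-positive cycling cells of both libraries. In WT the Csf2-positive cycling cells were deeper than the others (median 13662.5 against 7230 UMIs), in KO they were not (14948 against 15136.5), and the part of depth in the WT shares was not tested. The class name depended on the clustering. At a resolution of 1.5, 13 of the 18 WT cells (74 UMIs) and 12 of the 17 KO cells (119 UMIs) fell into the CD8 T cell-like class and only 5 in each library stayed with the cycling cells.

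**Figure D1:**
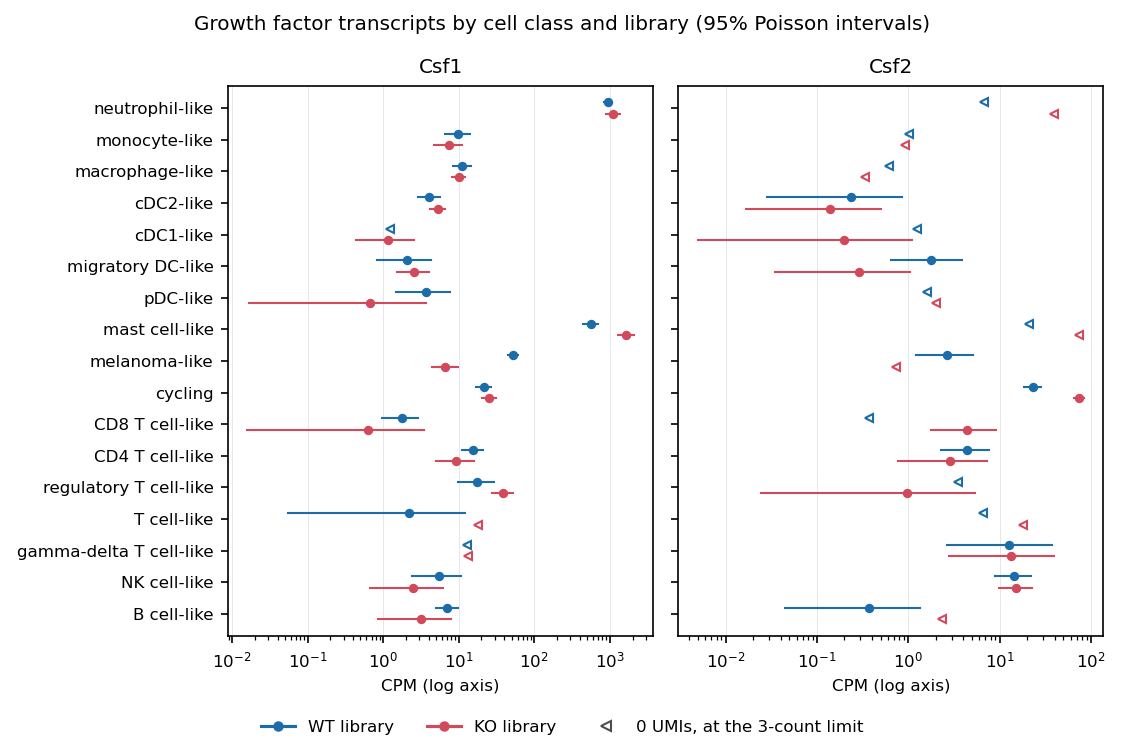
Level of Csf1 (left) and Csf2 (right) in each cell class, in CPM on a log axis, for the WT (blue) and KO (red) library; points are class totals, bars are 95% Poisson intervals and open triangles mark the level that 3 counts would give where 0 UMIs were found. Csf1 lies near 1000 CPM in neutrophil-like cells and Csf2 peaks in the cycling cells of the KO library at 74.3 CPM.

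Csf1r, the M-CSF receptor, marked macrophage-like and monocyte-like cells. Macrophage-like cells had 241 CPM (227 to 255, 1170 UMIs) in the WT and 287 CPM (276 to 299, 2587 UMIs) in the KO library, and monocyte-like cells at 199 CPM (183 to 215, 585 UMIs) and 307 CPM (288 to 326, 999 UMIs). In WT the macrophage-like level lay above the monocyte-like level with intervals apart, and in KO the intervals overlapped. Next came cDC2-like cells at 61.6 CPM (56.5 to 67.1) and 70.8 CPM (66.6 to 75.3), with intervals apart from both classes above. Macrophage-like plus monocyte-like cells, 10.4% of WT and 22.9% of KO cells, held 66.9% (65.1 to 68.7) and 70.8% (69.6 to 72.1) of the Csf1r UMIs. A Csf1r UMI was found in 71.4% of WT and 79.4% of KO macrophage-like cells, and in monocyte-like cells the shares were 75.9% and 88.2%, against 1.67% of CD8 T cell-like cells in each library. At 1000 UMIs per cell the shares were 24.1% and 25.6%, 19.7% and 23.3%, and 0.561% and 0.334%. Neutrophil-like cells, where Csf1 was high, had 18 WT and 2 KO Csf1r UMIs (41.0 and 26.3 CPM).

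The macrophage-like clusters carried Csf1r to different degrees. The larger one, led by Arg1 and Ccl7, had 244 CPM (WT) and 289 CPM (KO), and the smaller one of 67 and 53 cells, led by Ccl8, Igf1 and Folr2 (genes known from resident-type macrophages), at 183 CPM (135 to 243) and 213 CPM (157 to 283). The GM-CSF receptor separated them more widely. Csf2rb stood at 274 and 354 CPM in the Arg1-led cluster and at 30.6 CPM (8 UMIs) and 44.5 CPM (10 UMIs) in the Ccl8-led cluster, and Csf2ra at 266 and 295 CPM against 76.4 and 88.9 CPM. These clusters were drawn from the same cells, so the difference between them is a description.

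Csf2ra (ENSMUSG00000059326, chr19:61223957-61228429, minus strand), the alpha chain that binds GM-CSF, was spread over the myeloid classes. In WT its level was 256 CPM in macrophage-like, 242 CPM in monocyte-like and 226 CPM in neutrophil-like cells, with overlapping intervals. In KO it was 348 CPM in monocyte-like and 290 CPM in macrophage-like cells, with intervals apart, and 171 CPM in neutrophil-like cells (13 UMIs). The levels were 158 and 177 CPM in cDC2-like cells, where the KO interval overlapped that of neutrophil-like cells, and 138 and 146 CPM in cDC1-like cells, and migratory DC-like cells had 92.3 and 100.3 CPM. The alpha chain was lower in pDC-like cells (47.1 and 49.5 CPM) and near 6 CPM in CD8 T cell-like cells (5.86 and 5.67 CPM). An unnamed cluster of 351 WT and 288 KO cells with few UMIs (median 1635 and 1887.5) had 449 and 487 CPM of Csf2ra and 173 and 283 CPM of Csf1r, so some myeloid receptor transcripts lay outside the named classes.

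The beta chain genes lie 20.03 kb apart on chromosome 15 of GRCm38, Csf2rb (ENSMUSG00000071713) at chr15:78325752-78353847 on the plus strand and Csf2rb2 (ENSMUSG00000071714) at chr15:78282507-78305721 on the minus strand, each with 14 exons. Their coding sequences of 2688 and 2634 bases were 95.4% identical over 2626 aligned bases. In the last 1000 bases of the transcripts, which 3' reads mostly come from, identity was 88.1% over 936 aligned bases, and all 911 windows of 90 bases from either end were absent from the transcripts of the other gene. Reads of that length can therefore be told apart where they match exactly, but a share of wrongly assigned reads was not measured. A stretch of coding sequence shows how the copies differ (GENCODE M21, 5' to 3' on the coding strand, within 1 exon each, 15 mismatches in capitals). For Csf2rb it covers coding bases 301 to 390 (chr15:78338890-78338979, plus) and for Csf2rb2 coding bases 304 to 393 (chr15:78294352-78294441, minus).
Csf2rb: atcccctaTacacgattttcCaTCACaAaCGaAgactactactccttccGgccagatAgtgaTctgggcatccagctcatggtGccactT
Csf2rb2: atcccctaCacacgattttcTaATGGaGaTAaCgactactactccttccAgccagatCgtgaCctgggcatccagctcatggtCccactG

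Csf2rb, like Csf2ra, was spread over many classes. Mast cell-like cells had 587 CPM in WT (84 UMIs) and 465 CPM in KO (19 UMIs), and neutrophil-like cells 321 CPM (141 UMIs) and 566 CPM (43 UMIs). Macrophage-like cells were at 261 and 347 CPM, cDC2-like at 244 and 342 CPM, migratory DC-like at 226 and 262 CPM, pDC-like at 181 and 256 CPM, monocyte-like at 179 and 290 CPM and cDC1-like at 98.6 and 152 CPM. The intervals of macrophage-like and cDC2-like cells overlapped in both libraries. By number of transcripts the cDC2-like cells were the largest holder, with 33.1% of the WT and 39.2% of the KO Csf2rb UMIs. B cell-like cells held 304 WT UMIs (56.3 CPM) and 33 KO UMIs (25.8 CPM). CD8 T cell-like cells were at 5.11 and 10.7 CPM.

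Csf2rb2 had another distribution: its level was highest in mast cell-like cells (175 and 122 CPM, 25 and 5 UMIs) and pDC-like cells (172 CPM, 154 to 192, and 230 CPM, 206 to 256), with overlapping intervals. Monocyte-like cells had 17.7 and 34.7 CPM and cDC1-like cells 14.9 and 22.1 CPM. As a share of all beta chain UMIs, Csf2rb2 made up 48.7% (44.9 to 52.6) of WT and 47.4% (43.7 to 51.1) of KO pDC-like UMIs. In the other named classes with at least 50 beta chain UMIs in both libraries it ranged from 8.98% (6.78 to 11.6) in WT monocyte-like cells to 26.2% (16.0 to 38.5) in KO regulatory T cell-like cells, and macrophage-like (14.3% and 14.96%), migratory DC-like (16.5% and 16.9%) and cDC1-like cells (13.1% and 12.7%) differed little between libraries. The cDC2-like class was uneven. Its cluster led by Cd209a had 12.7% (11.3 to 14.3) and 13.4% (12.5 to 14.4), and its cluster led by Apod and Cyp7b1 had 33.7% (30.2 to 37.5) in WT and 47.2% (43.8 to 50.6) in KO, with the intervals of the libraries apart. In that cluster Csf2rb was 173 and 187 CPM and Csf2rb2 88.1 and 166.8 CPM, so the libraries differed in Csf2rb2.

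**Figure D2:**
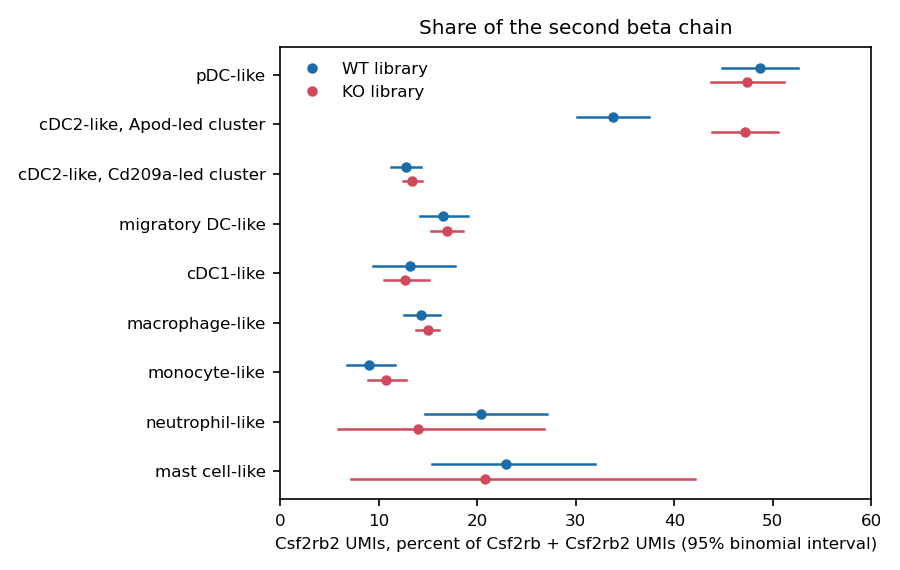
Csf2rb2 as a percentage of all Csf2rb and Csf2rb2 UMIs in the classes and in the cDC2-like clusters, for the WT (blue) and KO (red) library, with 95% binomial intervals. The pDC-like cells of both libraries and the Apod-led cDC2-like cluster of the KO library lie between 47.2% and 48.7%, and monocyte-like cells lie lowest in WT at 8.98%.

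The GM-CSF receptor needs the alpha chain Csf2ra and the common beta chain Csf2rb. The counts below take a UMI of either beta chain gene, so they include cells with only Csf2rb2, whose product serves interleukin-3. UMIs of both Csf2ra and a beta chain gene were found in the same cell in 65.0% of WT and 80.2% of KO monocyte-like cells, 62.4% and 75.1% of cDC2-like cells, 52.5% and 67.9% of macrophage-like cells and 44.0% and 57.3% of cDC1-like cells. The shares were 31.7% and 41.7% in migratory DC-like, 22.1% and 20.8% in neutrophil-like and 14.9% and 26.6% in pDC-like cells, against 0.349% and 0.334% in CD8 T cell-like cells. These shares follow depth, and KO cells were deeper in most of these classes (cDC1-like median 12427 UMIs in WT and 15599 in KO). At 1000 UMIs per cell both chains were seen in 3.06% (9 of 294) of WT and 6.90% (24 of 348) of KO monocyte-like cells, 6.71% and 9.09% of macrophage-like cells, 2.33% and 5.49% of cDC2-like cells and 4.84% and 4.35% of neutrophil-like cells. For pDC-like cells thinning turned the direction, to 1.97% in WT and 1.29% in KO. pDC-like cells had plenty of beta chain (a UMI of either gene in 71.8% and 88.0% of cells) and little alpha chain (19.6% and 28.5%). Csf2rb itself had a UMI in 177 of 316 WT and 117 of 158 KO pDC-like cells. Mast cell-like cells had a beta chain UMI in 22 of 24 WT and 8 of 9 KO cells and an alpha chain UMI in 3 and 1.

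Csf3r (ENSMUSG00000028859, chr4:126024550-126044440, plus strand), the G-CSF receptor, was highest in neutrophil-like cells, at 538 CPM (471 to 611, 236 UMIs) in WT and 842 CPM (649 to 1076, 64 UMIs) in KO. It was present in 57.9% and 75.0% of these cells, against 0.418% and 0.334% of CD8 T cell-like cells. Monocyte-like cells came next at 49.2 CPM (41.5 to 57.9) and 82.3 CPM (72.7 to 92.8), and macrophage-like cells had 37.7 CPM (32.4 to 43.5) and 48.0 CPM (43.5 to 52.7). Because neutrophil-like cells were few, they gave 35.0% of WT and 6.76% of KO Csf3r UMIs, while macrophage-like and monocyte-like cells together held 48.6% and 73.9%. Csf1r and Csf3r shared a cell in 31.6% of WT and 44.3% of KO monocyte-like cells and in 19.0% and 28.5% of macrophage-like cells. At 1000 UMIs per cell these shares were 0.680% (2 of 294) and 2.59% (9 of 348) in monocyte-like cells, and in macrophage-like cells the direction turned, to 3.11% (19 of 611) in WT and 1.18% (11 of 935) in KO. The 8 Csf3r UMIs of WT gamma-delta T cell-like cells came from 1 cell. Neutrophil-like cells thus stood highest for both Csf1 and Csf3r in WT.

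**Figure D3:**
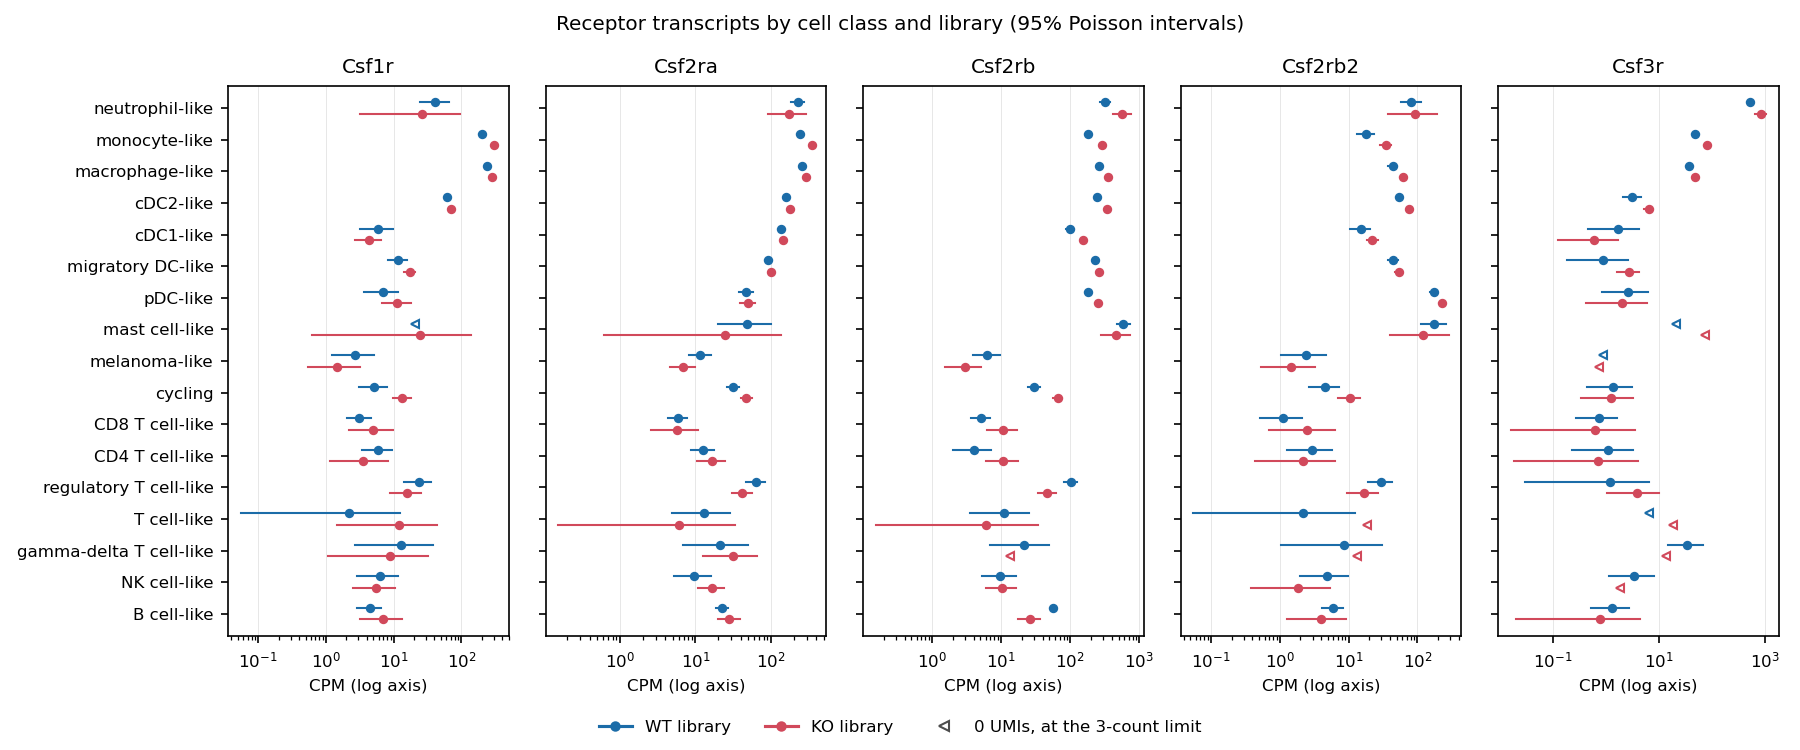
Levels of the 5 receptor genes by cell class, in CPM on log axes, for the WT (blue) and KO (red) library, with 95% Poisson intervals and open triangles at the 3-count level where 0 UMIs were found. Csf1r is highest in macrophage-like and monocyte-like cells, Csf2ra and Csf2rb extend to dendritic cells, Csf2rb2 is high in pDC-like cells and Csf3r is high in neutrophil-like cells.

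KO was set against WT in the 9 classes with at least 200 cells in each library. A gene with at least 20 UMIs in a class was counted as higher or lower when its log2 ratio of KO over WT CPM was at least 0.5 in size and the interval left out 0. Of 63 member ratios 43 reached 20 UMIs, 11 were higher and 1 was lower in KO. Over all genes measured, the share higher ran from 2.84% in NK cell-like to 8.49% in monocyte-like cells. The share lower ran from 3% in cDC1-like to 13.3% in monocyte-like cells. In monocyte-like cells 5 of the 6 members with enough UMIs were higher in KO and 0 lower, while 8.49% of the 9952 genes measured there were higher and 13.3% lower. Csf1r went from 199 to 307 CPM (log2 ratio 0.63, 0.48 to 0.78) and Csf2ra from 242 to 348 CPM (0.52, 0.39 to 0.66). Csf2rb went from 179 to 290 CPM (0.69, 0.54 to 0.85), Csf2rb2 from 17.7 to 34.7 CPM (0.98, 0.49 to 1.48) and Csf3r from 49.2 to 82.3 CPM (0.74, 0.44 to 1.04). The ligand Csf1 was at 9.85 and 7.37 CPM (-0.42, -1.26 to 0.41). All 5 higher members were thus receptor chains.

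Median depth was 8495 UMIs in WT and 9010.5 UMIs in KO monocyte-like cells. Transcripts of other cells moved with this result. In monocyte-like cells the summed level of 8 B cell markers was 1981 CPM in WT and 193 CPM in KO, that of 8 T cell markers 657 and 92.1 CPM, and all 8 of each were detected in both libraries. The 8 monocyte markers summed to 6072 and 10132 CPM, a log2 ratio of 0.74, and all 8 were higher in KO. Neutrophil markers summed to 173 and 74.3 CPM, with 2 of 8 at 0 in each library, and macrophage markers to 2560 and 3325 CPM. An alternative chosen after seeing the data left out cells with at least 3 lymphocyte marker UMIs, which took away 157 of 294 WT (53.4%) and 53 of 348 KO (15.2%) monocyte-like cells. B cell markers were then at 84.4 and 65.4 CPM and T cell markers at 30.1 and 9.35 CPM. In the remaining cells Csf2rb (0.72) and Csf2rb2 (1.24) were still counted as higher, and Csf1r (0.36), Csf2ra (0.07) and Csf3r (0.08) fell short of the 0.5 limit. Csf1 then had a ratio of 3.21 from few UMIs and was counted as higher. The call for Csf2rb2 was kept in each alternative clustering and filter, and was lost only with cells thinned to 1000 UMIs (0.76, interval covering 0). Csf2rb missed the limit only at clustering resolutions of 0.6 (0.47) and 1.5 (0.48). Csf1r and Csf2ra missed it under several other settings, among them a mitochondrial limit of 10% (0.29 and 0.24).

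**Figure D4:**
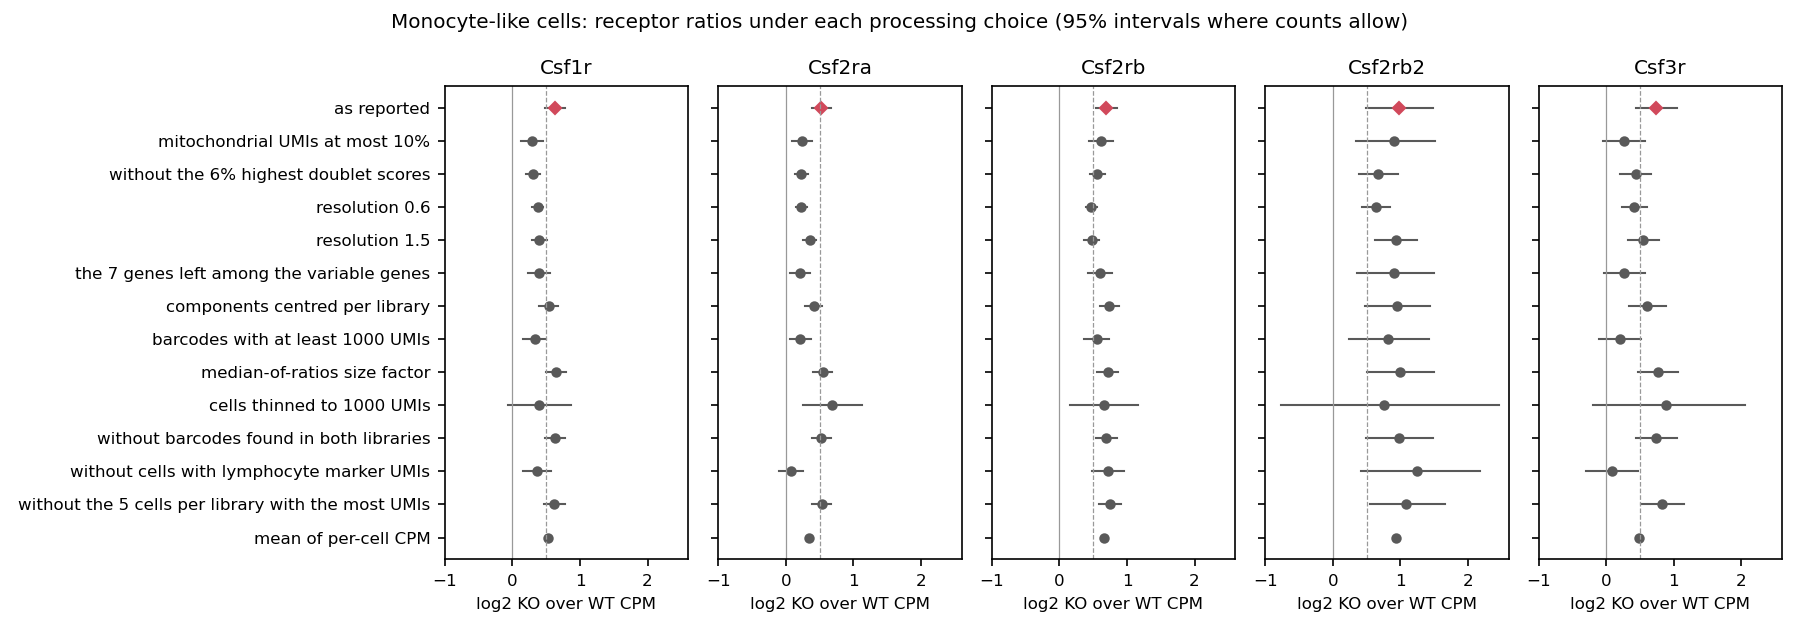
Log2 ratio of KO over WT CPM of the 5 receptor genes in monocyte-like cells as reported (red diamonds) and under each alternative processing (grey points), with 95% intervals where counts allow; the dashed line marks the 0.5 limit. Csf2rb2 lies beyond the limit under each setting, while the points of Csf1r, Csf2ra and Csf3r fall on both sides of it.

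Macrophage-like cells, where Cre is active too, had 0 of 6 members beyond the limit, against 6.23% of genes higher and 6.6% lower. Csf1r was at 0.25, Csf2ra at 0.18, Csf2rb at 0.41, Csf2rb2 at 0.48, Csf3r at 0.35 and Csf1 at -0.15 on the log2 scale. The intervals of all 5 receptor ratios lay above 0, but not under each alternative. Csf3r turned to -0.55 with cells thinned to 1000 UMIs and to -0.16 as a mean of per-cell CPM, and Csf2rb2 to -0.04 thinned and to -0.78 at resolution 0.6, where few UMIs remained in the class. Csf2rb passed the limit at a mitochondrial limit of 10% (0.52) and at resolution 1.5 (0.56). That these ratios are smaller than in monocyte-like cells was not tested.

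Among the dendritic classes large enough for ratios, both beta chains were counted as higher in KO in cDC1-like cells only. pDC-like cells (158 in KO) were under the 200-cell limit and were not read for ratios. Their levels from WT to KO were 181 (162 to 201) and 256 (231 to 282) CPM for Csf2rb. For Csf2rb2 they were 172 (154 to 192) and 230 (206 to 256) CPM, with intervals apart for both genes. In cDC1-like cells Csf2rb (98.6 to 152 CPM, log2 ratio 0.63, 0.41 to 0.84) and Csf2rb2 (14.9 to 22.1 CPM, 0.57, 0.02 to 1.15) were counted as higher, 2 of 4 members against 3.8% of all genes, and Csf2ra was at 0.08. In cDC2-like cells Csf2rb (0.49) and Csf2rb2 (0.48) lay just under the limit with intervals above 0, and Csf3r, at 3.16 and 6.40 CPM, was the 1 of 6 members counted as higher (1.02, 0.39 to 1.70; 4.33% of genes). In migratory DC-like cells Csf1r was the 1 of 6 (11.5 to 17.2 CPM, 0.59, 0.05 to 1.15; 4.67% of genes), with Csf2rb at 0.21 (0.09 to 0.33) and Csf2rb2 at 0.25 (-0.03 to 0.53). Lymphocyte markers were lower in KO in these classes too: from WT to KO, T cell markers summed to 164 and 11.9 CPM in cDC1-like, 545 and 66.3 CPM in cDC2-like and 518 and 199.7 CPM in migratory DC-like cells, and B cell markers to 294 and 155 CPM, 533 and 176 CPM, and 247 and 49.3 CPM. All 4 calls were kept without the cells carrying lymphocyte markers (Csf2rb 0.61 and Csf2rb2 1.04 in cDC1-like, Csf3r 0.93 in cDC2-like, Csf1r 1.31 in migratory DC-like cells). All 4 were lost with thinned cells and without the highest doublet scores, where Csf2rb was 0.39 and Csf2rb2 0.29 in cDC1-like cells.

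Lymphoid classes had low counts of these receptors. B cell-like cells had 1 of 5 members lower, Csf2rb (-1.13, -1.69 to -0.60), against 7.16% of genes lower. The clusters inside this class differed in Csf2rb and in their share of each library: the cluster led by Fcrl5 and Lmo7 had 99.996 CPM (204 UMIs in 350 cells) in the WT and 54.5 CPM (5 UMIs in 14 cells) in the KO library, and the largest cluster, led by Vpreb3 and Fcer2a, at 18.2 CPM (50 UMIs in 897 cells) and 23.0 CPM (26 UMIs in 328 cells). Within the largest cluster Csf2rb was therefore not lower in KO. CD8 T cell-like cells had Csf2rb higher (41 and 17 UMIs, 1.07, 0.16 to 1.91), 1 of 3 members against 5.19% of genes. CD4 T cell-like cells had it higher as well (11 and 15 UMIs, 1.41, 0.19 to 2.68), 1 of 4 members against 4.47%. The CD8 T cell-like call was lost without the 5 cells with the most Csf2rb UMIs in each library (1.11, interval covering 0) and the CD4 T cell-like call with at least 1000 UMIs per barcode (0.78, interval covering 0), and with thinned cells these calls and that of B cell-like cells were lost. NK cell-like cells had 0 of 3 beyond the limit, against 2.84% of genes higher and 4.4% lower, and their Csf2 ratio was 0.08 (-0.82 to 0.99).

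**Figure D5:**
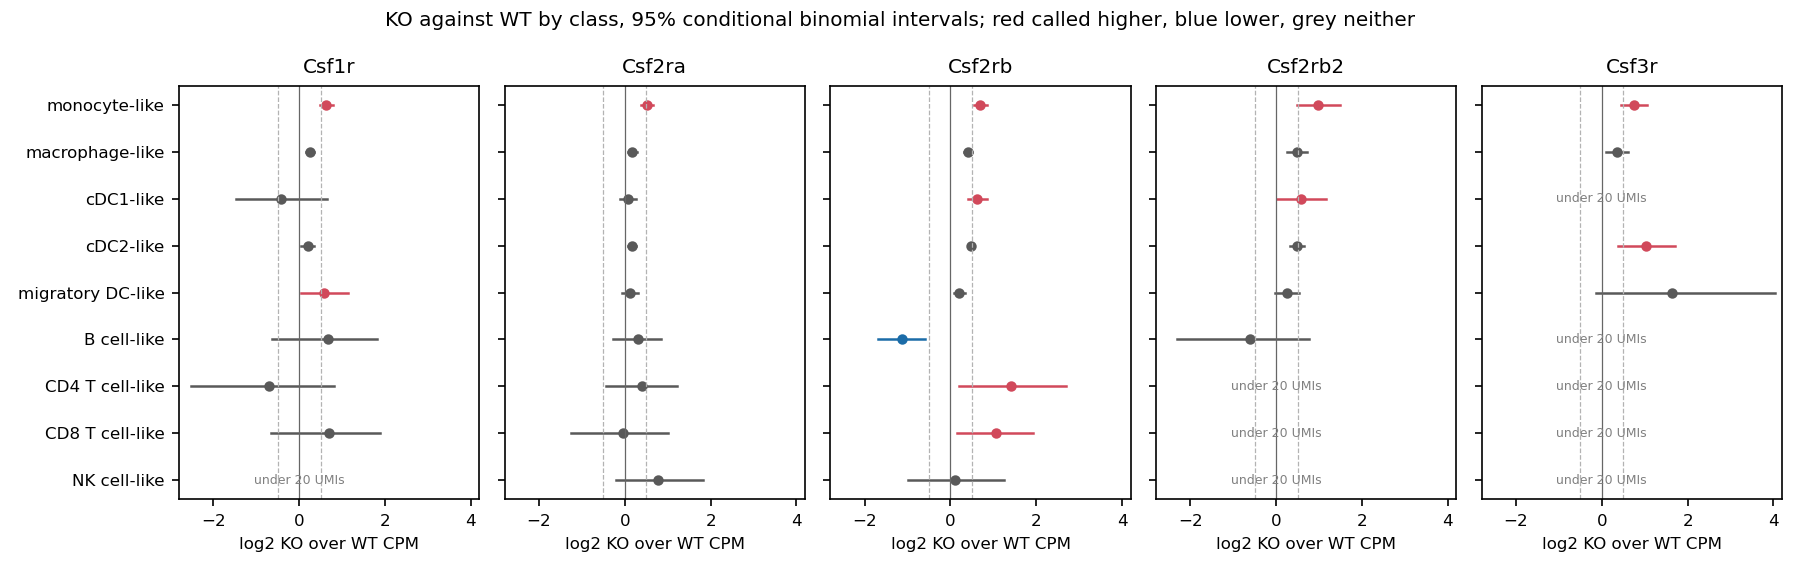
Log2 ratio of KO over WT CPM of the 5 receptor genes in the 9 classes with at least 200 cells in each library, with 95% conditional binomial intervals; red is counted as higher, blue as lower, grey as neither, and dashed lines mark the limit of 0.5 in either direction. The 5 receptor genes are red in monocyte-like cells and grey in macrophage-like cells.

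Lists of related genes, chosen with earlier results of these data known, were read by the same rule in monocyte-like and macrophage-like cells. Of the transcription factors of myeloid receptor genes, 4 of 7 measured were higher in KO monocyte-like cells, among them Spi1 (PU.1, the master factor of myeloid genes, 334 to 486 CPM, log2 ratio 0.54), Cebpa (1.504) and Cebpb (0.50). The list's median was 0.50 beside -0.05 over all genes, of which 8.49% were higher. In macrophage-like cells 3 of 7 were higher, among them Cebpa (0.57) and Klf4 (0.77), with a median of 0.30 beside -0.01 and 6.23% of all genes higher. Of 13 genes that signal from the receptors, 3 were higher in monocyte-like cells, among them Stat3 (0.54) and the kinase Lyn (0.55), with a median of 0.18, and 0 were beyond the limit in macrophage-like cells (median 0.25). Of 8 genes commonly induced by STAT5 or STAT3, 0 were higher and 1 was lower in monocyte-like cells, the feedback inhibitor Cish (-0.77; list median -0.09), and 1 was higher in macrophage-like cells, Socs1 (0.62; median 0.24). The lists were not read again without the cells carrying lymphocyte markers, and a link between receptor levels and these STAT-induced genes was not tested.

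The STAT-induced list was also read in lymphocytes. In CD4 T cell-like cells 5 of 8 were higher in KO, Cish (66.4 to 113 CPM, 0.77), Socs1 (0.81), Socs2 (1.30), Socs3 (0.50) and Bcl2l1 (0.97), with a list median of 0.64, beside 4.47% of all genes. The median over all genes was near 0 in both T cell classes. In CD8 T cell-like cells, where 5.19% of all genes were higher, 4 of 8 were, Cish (0.97), Socs1 (1.30), Socs3 (1.07) and Il4ra (0.73), with a median of 0.63. These genes answer several cytokines, interleukin-2 among them. A link between these ratios and any cytokine or receptor was not tested. In B cell-like cells, where 7.16% of all genes were lower, 3 of 8 were, Cish (-2.65), Socs3 (-0.63) and Pim1 (-1.72). NK cell-like cells had 1 of 8 higher (Cish) and 1 lower (Socs3), with a median of 0.11, beside 2.84% of all genes higher and 4.4% lower.

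Other ligands of these families were scarce. Il3 had 0 UMIs in both libraries, Il34 (the other Csf1r ligand) had 9 WT and 8 KO UMIs and Kitl 13 and 34. Csf3 (G-CSF) had 38 and 138 UMIs, of which macrophage-like cells held 31 and 116, at 6.38 and 12.9 CPM (log2 ratio 1.01, 0.43 to 1.64). Flt3l, the dendritic cell growth factor, had 1080 and 590 UMIs and was lower in KO monocyte-like (-1.03) and B cell-like cells (-1.06). The monocyte-like value stands beside the lower lymphocyte marker levels of that class in KO. Of the list of other ligands and receptors, 2 of 5 measured were higher in macrophage-like cells, Csf3 and Il3ra, the alpha chain that pairs with the beta chains for interleukin-3 (0.56), and in monocyte-like cells Il3ra was higher (1.07) and Flt3l lower among 3. Over all genes 6.23% were higher and 6.6% lower in macrophage-like cells, and 8.49% and 13.3% in monocyte-like cells. Il5, the eosinophil growth factor that also uses Csf2rb, was higher in CD4 T cell-like cells (10 and 25 UMIs, 2.29). Of the lymphocyte genes that accompany Csf2, 3 of 5 measured were lower in monocyte-like cells (Ifng -2.23, Xcl1 -1.82, Bhlhe40 -0.57), beside the lower lymphocyte marker levels given above, and in macrophage-like cells 1 of 6 was higher (Nr4a1, 0.54) and 2 were lower (Ifng -2.93, Xcl1 -3.04).

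Across the 30 class-by-library sums of 15 classes, which share libraries and differ in depth, the genes whose log2 levels followed each member most closely among 7801 were as follows. Csf1 went with the neutrophil gene Mmp9 (Pearson r = 0.87), Adipor1 (0.82) and Mirt2 (0.82), and Csf3r with Hdc (0.94), Hcar2 (0.93) and Fbxl5 (0.93). Csf1r went with Osm (0.95), Sirpb1c (0.93) and Clec4a1 (0.92), and Csf2ra with Wfdc17 (0.96), Cd300c2 (0.95) and Pirb (0.94). Csf2rb went with Spi1 (0.93), Gpr35 (0.93) and Ncf1 (0.93), and Csf2rb2 with Eepd1 (0.94), Tifa (0.91) and Rnd3 (0.91). Csf2, at a mean of 2.48 CPM over these sums, was too sparse for such a ranking to be a finding, and the genes closest to it were Tcrg-C4 (0.83), Trdv4 (0.83) and Klrb1f (0.79). The cycling cells, which held 57.0% of WT and 84.0% of KO Csf2 UMIs, were not among the 15 classes. Between members the highest value was that of the beta chains (r = 0.93), followed by Csf2ra with Csf2rb (0.86) and with Csf1r (0.80), and the ligand Csf1 reached 0.65 with Csf3r and 0.26 with its own receptor Csf1r. These are descriptions of class levels, not evidence of shared control.

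The promoters were searched for the core of the PU.1 motif, GAGGAA, on both strands. This motif was chosen with the monocyte-like ratios of the receptor genes and of Spi1 known, and a part of PU.1 in them was not tested. The RefSeq table of GRCm38.p6 had an entry for 5 of the 6 members searched, none for Csf2rb, and Csf1r was not searched. In the 250 bases before the RefSeq start the core was found in Csf2ra (2 adjacent copies), Csf2rb2 (1) and Csf3r (1) and not in Csf1 or Csf2, while 23.3% of 32851 promoters held it. The RefSeq start is not always that of the gene coordinates given above. For Csf2 the window was chr11:54249900-54250149, and the bases between it and the gene start at 54249667 were not searched. The windows of Csf2ra and of Csf3r (chr4:126024409-126024658) reached into the genes. By the gene coordinates the Csf3r core and the Csf2ra copy nearer the RefSeq start lay inside the gene. The other Csf2ra copy spanned the gene start. The C/EBP motif TTGCNNAA (9.56% of promoters) was found in Csf2 (1), and the motifs TGTGGT of RUNX (14.05%) and TGANTCA of AP-1 (6.75%) in none of the 5. A match is a description of the letters and not a bound site. The sequences of the genes with the most copies and with the strongest monocyte ratio are shown 5' to 3' on the gene's strand, with the core in capitals: Csf2ra (chr19:61228419-61228668, minus; 14 to 9 and 8 to 3 bases before the start) and Csf2rb2 (chr15:78305722-78305971, minus; 167 to 162 bases before the start, on the opposite strand and so written TTCCTC).
Csf2ra: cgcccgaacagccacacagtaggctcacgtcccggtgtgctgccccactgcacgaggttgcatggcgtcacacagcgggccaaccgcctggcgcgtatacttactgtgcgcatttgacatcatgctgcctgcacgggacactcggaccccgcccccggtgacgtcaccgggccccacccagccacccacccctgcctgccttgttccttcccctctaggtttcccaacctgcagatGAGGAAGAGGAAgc
Csf2rb2: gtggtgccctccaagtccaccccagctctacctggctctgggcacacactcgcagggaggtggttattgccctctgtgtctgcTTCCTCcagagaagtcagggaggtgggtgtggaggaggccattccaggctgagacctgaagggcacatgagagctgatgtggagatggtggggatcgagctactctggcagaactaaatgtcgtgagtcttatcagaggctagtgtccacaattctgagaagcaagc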

How the data were processed

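Libraries had been made with the 10x 3' v3 chemistry, per the labels' protocols. Build GRCm38 and the tools Seurat 4.0.1, Cell Ranger 3.1.0 and bcl2fastq 2.20 are listed in the submitters' processing notes, while the deposited matrices carry Cell Ranger 4.0.0 in the file headers. The deposited values are raw UMI counts per gene and barcode, per the file headers, and no barcode held fewer than 500 UMIs. Their authors' cell annotation was not used here.

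From these counts, cells with fewer than 200 genes or over 15% mitochondrial UMIs were removed with scanpy 1.11.5 (Python 3.11.15, numpy 2.4.6, scipy 1.17.1, pandas 2.3.3), and Scrublet was run per library. Counts were scaled to 10000 per cell and logged, and 2000 variable genes without the 7 members gave 30 principal components, a graph of 15 neighbours and Leiden clusters (leidenalg 0.10.2, resolution 1). A cluster was named from at least 3 markers of its class, each in at least 10% of cells and over 2 times the level elsewhere. UMIs were summed per class and library and given as CPM with exact 95% Poisson intervals, shares with Clopper-Pearson intervals, and ratios with conditional binomial intervals; a count of 0 allows up to 3 counts. Shares of cells were also taken after thinning to 1000 UMIs. A ratio was read in classes of at least 200 cells per library for genes with at least 20 UMIs, and counted as higher or lower at a log2 size of 0.5 with an interval without 0. With 1 pooled library per genotype no test over samples was possible. The calculation of ratios was checked on simulated class sums with Poisson counts. That setting leaves out UMIs concentrated in single cells, so it does not show how the intervals perform there. Likeness used Pearson's r of log2(CPM + 1) over named classes, without the cycling cells, with at least 20 cells in each library, and genes with a mean of at least 10 CPM. Sequences came from RefSeq (GRCm38.p6) and GENCODE M21 tables and were aligned with biopython 1.88, and plots used matplotlib 3.10.9.

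The text names all 7 members, members of the fixed lists past the limit (some are not reported here), and the 3 genes most like each member. Members and lists were chosen with earlier results of these data known. Alternatives covered the mitochondrial limit, doublet scores, depth, clustering, scaling, thinning and the richest cells; leaving out shared barcodes and lymphocyte-marker cells was chosen after seeing the data.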

Additional observations from a re-analysis of the deposited data

How the results depend on the processing

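Of 525 values of the 43 ratios under alternatives, 459 stayed within the 95% interval of the reported ratio, 66 moved out of it and 0 of the ratios counted as higher or lower changed sign. The number of member ratios counted as higher went from 11 to 5 without the 6% of cells with the highest doublet scores and to 3 with cells thinned to 1000 UMIs. The number counted as lower went from 1 to 2 at a mitochondrial limit of 10%, 3 without the highest doublet scores, 2 at resolution 1.5, 0 thinned and 3 with no minimum beyond 1 UMI. Over all genes and classes, thinning gave 1683 higher and 1968 lower calls, against 4708 and 6101 as reported. In monocyte-like cells the number of members counted as higher, 5 as reported, was 2 at a mitochondrial limit of 10%, 2 without the highest doublet scores, 1 at resolution 0.6 and 2 at resolution 1.5. It was 2 with the members left among the variable genes, 2 with at least 1000 UMIs per barcode and 2 thinned. Without cells carrying lymphocyte markers it was 3, namely Csf2rb, Csf2rb2 and Csf1, the last of which was not among the reported 5. The cause of these changes was not tested.

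The share of Csf1 UMIs in neutrophil-like cells was 19.7% in KO without the highest doublet scores (15.7% as reported) and 44.7% in WT without shared barcodes (40.8%). The share of Csf2 UMIs in cycling cells was 66.7% in WT without the highest doublet scores and 7.95% at resolution 1.5 (57.0%), and 41.8% in KO at resolution 1.5 (84.0%), where these cells were divided among other classes. The share of Csf1r UMIs in macrophage-like and monocyte-like cells (66.9% in WT) was 69.8% at resolution 0.6, 70.0% at resolution 1.5, 59.1% with the members among the variable genes and 63.3% with at least 1000 UMIs. In KO (70.8%) it was 74.3% at a mitochondrial limit of 10%, 74.2% without the highest doublet scores, 73.4% at resolution 0.6, 73.6% at resolution 1.5 and 74.3% with at least 1000 UMIs.

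With components centred per library only 36 of the 43 ratios could be formed, so no count is given. No paired analysis was possible because each genotype has 1 library. Neutrophil-like, mast cell-like, pDC-like and regulatory T cell-like cells were too few for ratios, and Csf2 reached 20 UMIs in 1 class only.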
